A study of Ovis aries and Mus musculus with 20 samples.

Results

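The genes described here are 10 immediate early genes of the mouse, *Fos*, *Fosb*, *Jun*, *Junb*, *Jund*, *Egr1*, *Atf3*, *Ier2*, *Dusp1* and *Btg2*, out of 20621 autosomal protein-coding genes, and all 10 were found in the annotation. They were chosen by name, with the compartment values and domains of these mouse libraries already in view, so those values are given as a description and no test was made on them. The tissue was inguinal white adipose tissue (iWAT), a subcutaneous fat depot, from adult female Kunming mice 32 weeks of age. Each of the 2 Hi-C libraries came from a pool of 10 mice, called pool 1 and pool 2 below. There was 1 group and no treatment, and a pool is the replicate, so an error is the SD between both pools. The paper states that its animals were killed after a fast and that the samples were frozen at once. In Hi-C, DNA ends that are neighbours in the nucleus are joined and sequenced in pairs. Chromatin falls into active A regions and inactive B regions. For every 20-kb bin, contact with the B regions of the same chromosome was subtracted from contact with its A regions, and this A-B index is above 0 in A and below 0 in B. The tissue was cross-linked and spun, the layer with the adipocytes was lysed to collect nuclei, and the index averages over every nucleus collected.

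Immediate early genes are transcribed within minutes of a stimulus, before any new protein is needed, and their RNA is short-lived. Growth factors and stress reach them through MAP kinases and serum response factor, and cAMP reaches them through CREB, which binds the cAMP response element. In fat, catecholamines and feeding act through such signals, and the same genes are known to rise when tissue is cut or dissociated. *Fos*, *Fosb*, *Jun*, *Junb* and *Jund* encode subunits of the AP-1 transcription factor, and *Atf3* encodes a related leucine zipper protein. *Egr1* encodes a zinc finger transcription factor, *Ier2* a nuclear protein, *Dusp1* a phosphatase that switches MAP kinases off, and *Btg2* an antiproliferative protein that speeds the removal of mRNA tails. The index records contacts and not RNA, so it was not measured here whether any of these genes was transcribed.

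The starts of 5 members are shown because they span the range of the A-B index, from *Fosb*, the highest, to *Jun*, the lowest, and differ in the motifs they hold. Each runs over 300 bases of GRCm39 in the direction of transcription, from 250 bases before the first transcribed base of the canonical transcript. The windows are chr12:85520408-85520707, plus strand, for *Fos*, chr7:19043927-19044226, minus strand, for *Fosb*, chr4:94940410-94940709, minus strand, for *Jun*, chr8:85389434-85389733, minus strand, for *Ier2* and chr1:134006809-134007108, minus strand, for *Btg2*. Capitals mark TATAAA and the letters TGACG, on either strand, which the longer TGACGTCA holds on both strands.
Fos: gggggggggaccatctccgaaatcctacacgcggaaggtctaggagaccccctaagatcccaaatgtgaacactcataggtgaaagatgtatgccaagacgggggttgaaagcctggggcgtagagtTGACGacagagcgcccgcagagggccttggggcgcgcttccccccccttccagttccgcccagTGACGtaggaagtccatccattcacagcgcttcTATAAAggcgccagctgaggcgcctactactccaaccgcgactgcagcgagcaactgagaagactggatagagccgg
Fosb: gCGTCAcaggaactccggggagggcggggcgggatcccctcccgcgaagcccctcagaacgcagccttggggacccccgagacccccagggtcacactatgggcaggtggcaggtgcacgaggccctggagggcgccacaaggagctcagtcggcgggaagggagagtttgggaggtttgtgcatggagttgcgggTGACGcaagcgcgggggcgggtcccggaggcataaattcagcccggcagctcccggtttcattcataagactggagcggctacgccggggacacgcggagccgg
Jun: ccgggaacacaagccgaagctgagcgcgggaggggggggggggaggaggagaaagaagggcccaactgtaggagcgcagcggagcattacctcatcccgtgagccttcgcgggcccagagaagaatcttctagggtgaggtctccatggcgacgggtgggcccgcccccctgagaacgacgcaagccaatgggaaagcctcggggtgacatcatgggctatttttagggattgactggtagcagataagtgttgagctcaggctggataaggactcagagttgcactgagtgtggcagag
Ier2: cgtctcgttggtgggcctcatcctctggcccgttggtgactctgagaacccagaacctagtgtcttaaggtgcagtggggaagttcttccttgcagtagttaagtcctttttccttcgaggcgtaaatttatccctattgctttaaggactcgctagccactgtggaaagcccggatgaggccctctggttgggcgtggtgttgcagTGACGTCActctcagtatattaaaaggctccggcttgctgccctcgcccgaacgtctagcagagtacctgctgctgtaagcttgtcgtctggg
Btg2: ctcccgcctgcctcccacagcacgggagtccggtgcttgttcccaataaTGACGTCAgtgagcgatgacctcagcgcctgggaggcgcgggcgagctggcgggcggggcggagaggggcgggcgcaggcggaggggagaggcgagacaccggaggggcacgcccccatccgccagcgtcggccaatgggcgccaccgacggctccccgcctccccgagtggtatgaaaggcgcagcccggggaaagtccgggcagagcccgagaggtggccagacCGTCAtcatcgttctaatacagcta

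The full cAMP response element, TGACGTCA, was present in 4 of the 10 promoter windows, those of *Jund*, *Ier2*, *Dusp1* and *Btg2*, against 2.42% of 20621 windows of the same length. With the first transcribed base as position 0, it ran from -43 to -36 in *Ier2*, from -96 to -89 in *Dusp1*, from -201 to -194 in *Btg2* and from -214 to -207 in *Jund*. The shorter TGACG, which lies within TGACGTCA on both strands, was found in 9 members, all but *Jun*, and in 22.9% of all windows. In *Fos* it stood at -60 to -56, upstream of a TATAAA at -27 to -22, and *Junb* was the other member with TATAAA, which 13.3% of all windows held. The letters GCGNGGGCG, which EGR proteins are known to bind, occurred in *Fosb*, *Jund* and *Btg2* and in 6.36% of all windows. GGGCGG, which partly overlaps GCGNGGGCG, was in 8 members and 43.1% of all windows, and CCAAT in 5 members and 39.5%. Neither the AP-1 motif TGANTCA nor the CArG box of serum response factor occurred in any of the 10 windows. Of all windows, 7.15% and 1.46% held them, and both strands were searched. Sites upstream of the windows, or with other letters, would be missed by this search. The *Jun* window, for example, holds TGACATCA, which neither TGANTCA nor TGACGTCA matches. It was therefore not tested whether these genes lack sites for AP-1 or serum response factor. The members' windows were rich in GC, with a median of 65.3% (53.7% in *Ier2* to 70.3% in *Jund*) against 54.7% over all windows. They held a median of 23.5 CpG dinucleotides (10 in *Egr1* to 38 in *Jund*) against 11 over all windows. A match is a description of letters and not a site that was seen to be bound.

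All 10 genes started in the A compartment in both pools, as did 75.6% of all protein-coding genes, so the sign alone sets them little apart. Their level was mostly high against all genes, of which 21.7% were in B in both pools. No comparison with genes in A alone was made. The median start index of the members was 4.94, against 3.26 over all genes, and the starts of 6 members (*Fosb*, *Atf3*, *Jund*, *Junb*, *Ier2* and *Btg2*) were in the top 25% of all genes in both pools, where 21.3% of all genes were. *Btg2* was only just inside that limit, with 4.93 in pool 1 and 4.43 in pool 2 against limits of 4.92 and 4.42, and *Fos* was next below it. In total 8 of the 10 lay above the median gene, and *Egr1* and *Jun* lay slightly below it by the mean of both pools. With the members ranked among the genes of their own chromosome, 9 lay above its median gene, all but *Jun*, from 99.9% of genes below *Fosb* and 99.1% below *Atf3* to 35.8% below *Jun*.

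**Figure D1:**
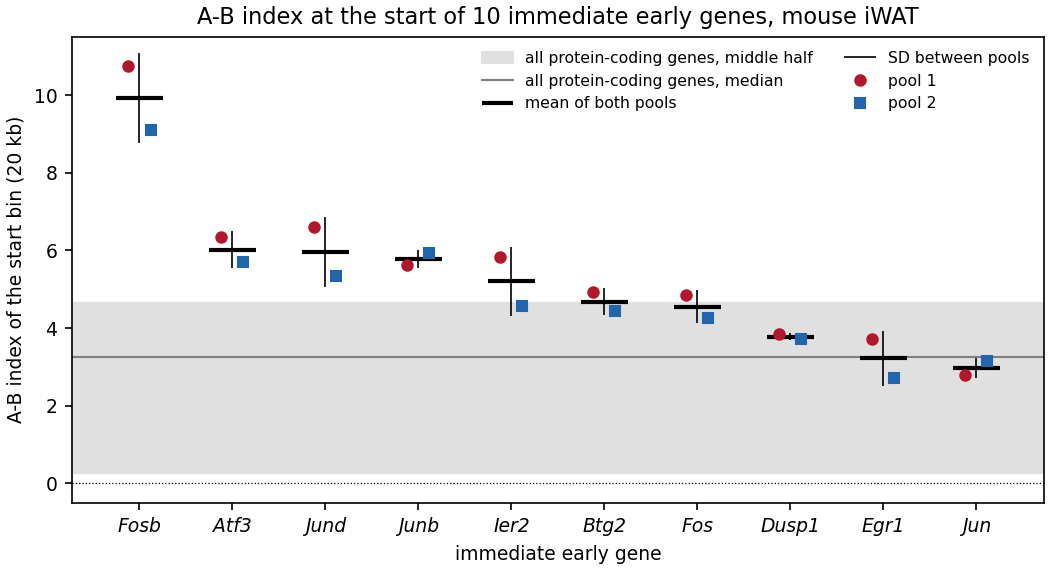
A-B index of the 20-kb bin at the start of each gene (y axis), genes ordered by mean; circles are pool 1, squares pool 2, bars the mean and thin lines the SD of both pools, and the grey band and line are the interquartile range and median of all protein-coding genes. *Fosb* stands apart at 9.92, and *Egr1* and *Jun*, at 3.22 and 2.96, lie just under the median gene at 3.26.

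Among the Fos proteins, which need a Jun partner to bind DNA, the levels differed most. *Fosb* (chromosome 7, 19036621 to 19043976, minus strand, 4 exons) had an index of 10.7 in pool 1 and 9.10 in pool 2, a mean of 9.92 ± 1.16 (SD, *n* = 2 pools). Only 1 of the 20621 genes had a higher mean, *Ercc1*, a DNA repair gene whose start lies 31.9 kb away in the bin next to it, at 11.0 and 9.72. *Fos* (chromosome 12, 85520658 to 85524047, plus strand, 4 exons) was at 4.85 and 4.26, a mean of 4.55 ± 0.42. Both pools placed *Fosb* first and *Fos* seventh among the members.

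The Jun genes are single exons in their canonical transcripts, and they also differed from each other. *Jund* (chromosome 8, 71151599 to 71153265, plus strand), the Jun gene that is known to be present in resting cells, had 6.59 in pool 1 and 5.33 in pool 2, a mean of 5.96 ± 0.89. *Junb* (chromosome 8, 85701113 to 85705359, minus strand) had 5.62 and 5.94, a mean of 5.78 ± 0.22. *Jun* (chromosome 4, 94937271 to 94940459, minus strand) was the lowest member, with 2.78 and 3.14, a mean of 2.96 ± 0.25. *Junb* and *Jun* were the only members higher in pool 2 than in pool 1. *Jund* and *Junb* overlapped between pools, and the values of *Jun* lay below both in each pool.

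By the mean of both pools, *Atf3* lay just above the range of the Jun genes, and *Ier2* and *Egr1* lay within it. *Atf3* (chromosome 1, 190902493 to 190950241, minus strand) had 6.35 and 5.69, a mean of 6.02 ± 0.47, the second highest. *Egr1* (chromosome 18, 34992876 to 34998049, plus strand, 2 exons) had 3.72 and 2.73, a mean of 3.22 ± 0.71, so only its pool 1 value was above the median gene of that pool (3.47, against 3.06 in pool 2). *Ier2* (chromosome 8, 85387960 to 85389483, minus strand, 1 exon) had 5.83 and 4.58, a mean of 5.20 ± 0.89. *Atf3* was thus above *Ier2*, and *Ier2* above *Egr1*, in both pools.

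Of the 2 members that damp the response, *Btg2* ranked 6 and *Dusp1* ranked 8 of the 10 by the mean. *Btg2* (chromosome 1, 134002908 to 134015033, minus strand) had 4.93 and 4.43, a mean of 4.68 ± 0.35. *Dusp1* (chromosome 17, 26724564 to 26781102, minus strand) had 3.85 and 3.71, a mean of 3.78 ± 0.10, the smallest spread of the 10. From the highest mean to the lowest the order was *Fosb*, *Atf3*, *Jund*, *Junb*, *Ier2*, *Btg2*, *Fos*, *Dusp1*, *Egr1* and *Jun*. Of the neighbours in this order, only *Fosb* and *Atf3*, and *Fos* and *Dusp1*, were separated with no overlap between pools, and in the other 7 steps the values of the pools overlapped. Compared within each pool, 5 of the 9 steps had the same direction in both, since *Ier2* was also above *Btg2* (by 0.91 in pool 1 and 0.15 in pool 2), *Btg2* above *Fos* (by 0.07 and 0.18) and *Dusp1* above *Egr1* (by 0.13 and 0.99). The remaining 4 steps changed sign between pools. Chromosomes share no fixed scale for the index, and ranks within each gene's own chromosome changed part of the order. By those ranks *Btg2* (81.2% of genes below it) was above *Ier2* (76.8%), and *Egr1* (67.3%) above *Dusp1* (55.7%). Pool 1 was higher in 8 of 10 members and in 70.9% of all genes, and the index of pool 1 also had the wider SD over all bins (3.77, against 3.42 in pool 2). The median absolute difference between pools was 0.63 for the members and 0.50 for all genes.

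The annotated 5′ end is not always the start in common use. The canonical transcript of *Dusp1* starts 53609 bases downstream of the gene's 5′ end, that of *Atf3* 34704 bases, that of *Btg2* 8175 bases and that of *Junb* 12 bases, while in the other 6 both starts are the same base. At the canonical start *Dusp1* had 3.97 and 3.46 and *Atf3* 6.19 and 5.34, and the bin did not change for *Btg2* and *Junb*. The 5′ end of *Dusp1* lies 0.666 kb from the start of *Ergic1*, a gene of endoplasmic reticulum to Golgi transport, in the same bin, so the value of that bin belongs to both genes. Over the gene body the members had the same median, 4.94, as at the start. The body of 6 members fits in 1 bin, as for 29.1% of all genes, and of the other 4 the body means were 9.73 ± 0.86 for *Fosb*, 5.90 ± 0.57 for *Atf3*, 3.77 ± 0.23 for *Dusp1* and 2.61 ± 0.08 for *Jun*.

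Around most members, the index was high over long stretches and not at the start bin alone. *Jun* was an exception, with a mean of 1.36 over the bins within 500 kb, less than around the median gene. The bins within 500 kb on each side averaged a median of 4.37 over the members, against 2.14 over all genes, those in B included. The start bin was above this neighbourhood in both pools in 8 of 10 members, against 62.1% of all genes. The median excess was 0.88 index units for the members and 0.51 for all genes. The excess was 1.20 in pool 1 and 2.01 in pool 2 for *Jun*, the member with the lowest start, 1.90 and 1.21 for *Jund*, and 0.97 and 1.93 for *Junb*. For *Fosb* it was 1.76 and 0.73, for *Atf3* 1.03 and 1.27, for *Ier2* 0.94 and 0.27, and for *Btg2* 0.55 and 0.58. *Fos* was level with its surroundings, with 0.05 and 0.02. *Dusp1* (-0.04 and 0.21) and *Egr1* (0.22 and -0.35) changed sign between pools and so had no excess beyond the spread. The size of the excess depended on the span: for *Fosb* the mean was 1.24 with 500 kb on each side, 0.46 with 250 kb and 5.16 with 1000 kb. With the median of the neighbours in place of their mean, the excess was 0.38 for *Jund* and 0.66 for *Atf3*, against 1.56 and 1.15 with the mean.

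**Figure D2:**
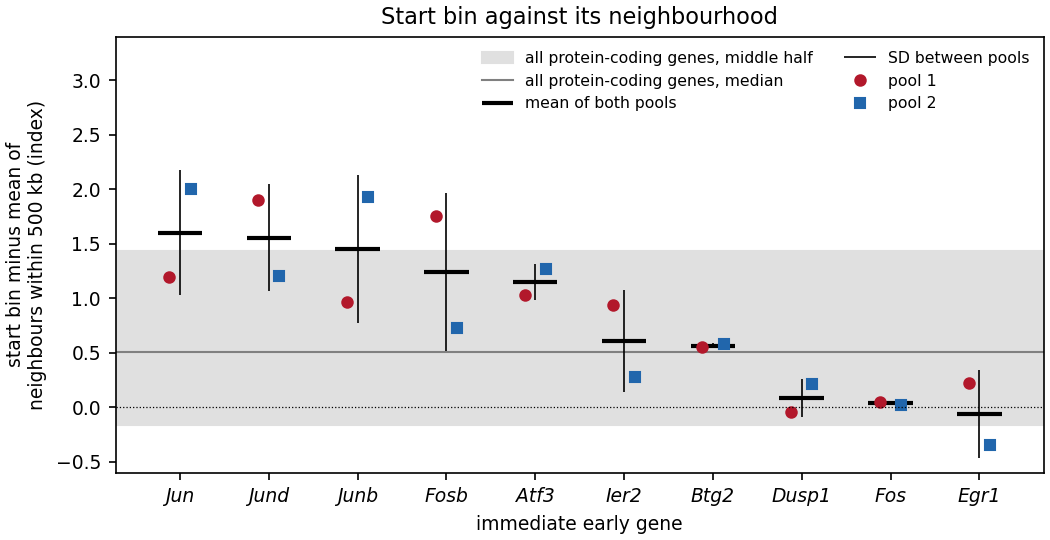
Start index minus the mean of the bins within 500 kb on each side (y axis, index units) for each gene; circles are pool 1, squares pool 2, bars the mean and thin lines the SD of both pools, and the grey band and line are the interquartile range and median of all protein-coding genes. The mean excess runs from 1.60 in *Jun* to -0.06 in *Egr1*, with the median gene at 0.51.

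The profiles took 3 shapes. *Fos*, *Btg2*, *Egr1* and *Dusp1* lay in broad plateaus. Over the 51 bins of the window the mean index varied by only 0.85 around *Fos*, 1.06 around *Btg2*, 1.17 around *Dusp1* and 1.28 around *Egr1*. *Fos* ranked 21 and 23 among those 51 bins in pools 1 and 2, with the highest bin at *Eif2b2*, a translation initiation factor gene, and the lowest at 4.04. *Btg2* was the highest bin of its window by the mean of both pools, ranking 2 and 3 in pools 1 and 2.

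*Fosb*, *Atf3*, *Jund* and *Jun* had windows with a steep side, with ranges of 6.38, 6.35, 5.86 and 3.77 over the window. Near *Fosb* the index was lowest at the bin 500 kb toward the start of the chromosome, at 3.63 and 4.32, which holds *Psg17*, a pregnancy-specific glycoprotein gene. Near *Atf3* the lowest bin, at the same distance and side, was in B (-0.25 and -0.15). Near *Jund* the lowest bin lay 400 kb toward the end of the chromosome, at 0.62 and 0.21. *Jun* was the member with most B around it: 4 of its 51 bins were in B in both pools, the nearest of them 200 kb away at -0.77 and -0.40, and *Tek*, an endothelial receptor gene starting 313 kb from *Jun*, was in B at -0.52 and -0.56.

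*Ier2* and *Junb* shared 1 region, and a drop to a mean of 2.49 lay 220 kb to one side of *Ier2* and a drop to 2.36 lay 200 kb to the other side of *Junb*. The bin of *Junb*, which also holds the start of *Hook2*, a microtubule adaptor gene, was the highest of both windows. The rank of the start bin often differed between pools, as for *Junb* (12 and 1), *Atf3* (11 and 1), *Fosb* (2 and 14) and *Jund* (2 and 20), so single bins within a plateau are not resolved. The nearest bin in B in both pools was a median of 1380 kb from the members, against 340 kb from all gene starts. All gene starts include the 21.7% that are themselves in B in both pools, at no distance from such a bin. All members start in A, so part of the difference follows from that. The nearest bin in B was 3060 kb from *Dusp1*, 2900 kb from *Btg2*, 2060 kb from *Fos* and 1980 kb from *Egr1*.

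**Figure D3:**
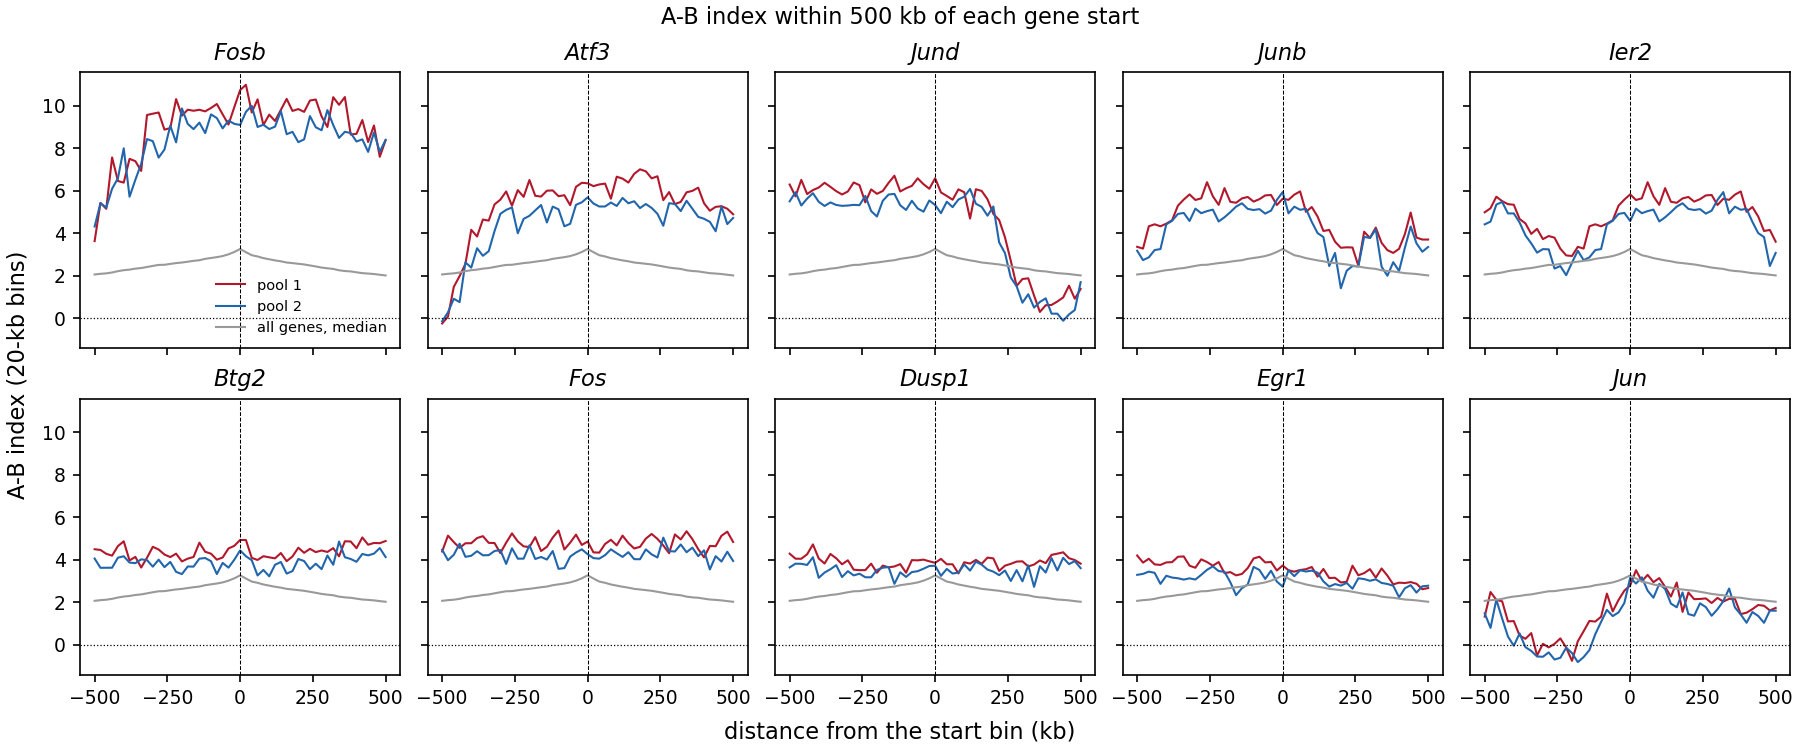
A-B index of 20-kb bins (y axis) by distance from the start bin (x axis, kb), 1 panel per gene; red is pool 1, blue pool 2, and grey the median over all protein-coding genes. The line stays nearly flat around *Fos* (range 0.85), crosses 0 in both pools near *Jun* and *Atf3*, and drops on both sides of the pair *Ier2* and *Junb*.

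Topologically associating domains (TADs) are stretches that contact themselves more than their surroundings, and here 2979 were called on the map of both pools merged. Each member started inside a TAD, as did 93.9% of all genes, and no member started within 40 kb of a boundary bin, against 19.6% of all genes. The limit matters, since *Egr1* (47.1 kb), *Ier2* (49.5 kb) and *Atf3* (49.8 kb) lay just beyond it. Within 100 kb there were 5 members, with *Jun* (60.5 kb) and *Junb* (94.6 kb), against 38.8% of all genes. The other 5 were 228 kb (*Jund*) to 604 kb (*Fosb*) from a boundary, and the median distance was 162 kb for the members and 142 kb for all genes.

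*Ier2* and *Junb* started in the same TAD, chromosome 8, 85340001 to 85800000, 316 kb apart and toward opposite ends. This TAD of 460 kb held 26 protein-coding starts besides those of both genes, among them *Calr*, which encodes a chaperone, and *Klf1*, which encodes an erythroid transcription factor, and its bins lay between 4.95 and 5.78 in the mean of both pools. Counted once per gene, the TAD around a start had a median length of 780 kb for the members and 680 kb for the 19358 genes that start in a TAD. It held a median of 19 other starts for the members, against 10 for those genes. The longest was that of *Fosb* (chromosome 7, 18440001 to 19920000, 1480 kb), with 65 other starts and a range of -1.67 to 10.4 over its bins. *Btg2* followed with 1280 kb and 20 other starts, then *Egr1* with 1080 kb and 18, and *Jun* with 1000 kb. The TAD of *Jun* (chromosome 4, 94880001 to 95880000) had the fewest other starts, 2, those of *Fggy* and *Hook1*. *Jun* was thus a gene near the edge of a long, sparse TAD, and *Ier2* and *Junb* were 2 genes of a short, dense one.

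Relatives of the members stood in some of these TADs. The TAD of *Fos* (680 kb, 13 other starts) also held *Jdp2* and *Batf*, leucine zipper genes whose products pair with Jun, 124 kb and 213 kb from *Fos*. *Jdp2* had 5.13 in pool 1 and 4.13 in pool 2 and *Batf* 4.99 and 4.48, close to *Fos* itself. The TAD of *Atf3* (440 kb, 9 other starts) held *Batf3*, another gene of that kind, 120 kb away at 6.02 and 5.26. The TAD of *Jund* (660 kb, 38 other starts) held *Crtc1*, a coactivator of CREB, 259 kb away at 6.27 and 5.32. By the mean of both pools, *Jun*, *Junb*, *Atf3* and *Btg2* had the highest index of all starts in their TADs. *Junb* was level with *Hook2* in its bin, and *Fosb* was next after *Ercc1*. Of these, only *Jun* was highest in both pools. In pool 1 *Rabif* (5.04) was above *Btg2* (4.93), *Flvcr1* (6.51) above *Atf3* (6.35) and *Tnpo2* (5.97) above *Junb* (5.62). In pool 2 *Adipor1* (4.85) and *Kdm5b* (4.54) were above *Btg2* (4.43). By the mean of both pools, *Ier2* ranked 25 in the TAD whose highest start was *Junb*, and *Egr1* ranked 16 in its own. The order of *Ier2* and *Junb* differed between pools. In pool 1 *Ier2*, at 5.83, was above *Junb*, at 5.62, and in pool 2 *Ier2*, at 4.58, was below *Junb*, at 5.94.

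**Figure D4:**
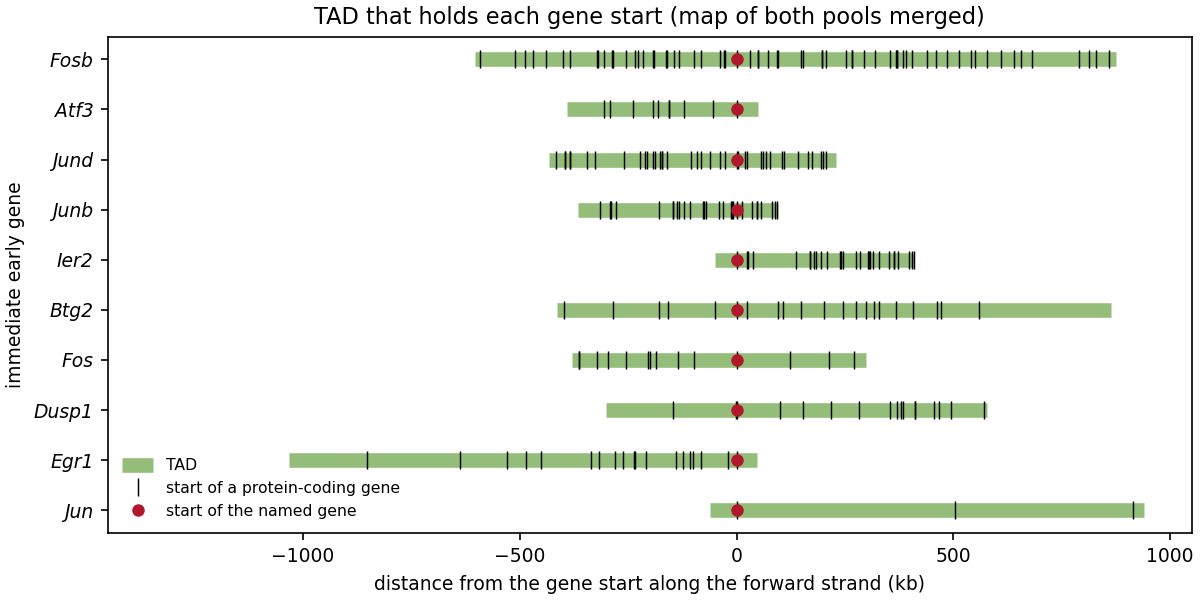
TAD that holds each gene start (green bars), by distance from that start in kb (x axis), genes from the highest mean index at the top; red points are the named genes and black ticks the starts of protein-coding genes. The TAD of *Fosb* spans 1480 kb with 65 other starts, that of *Jun* 1000 kb with 2, and *Ier2* and *Junb* lie toward opposite ends of 1 TAD of 460 kb.

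The members were short genes in gene-rich surroundings, features that the choice by name did not use. Their median length was 4710.5 bases, from 1524 in *Ier2* to 56539 in *Dusp1*, against 19303 over all genes, and their canonical transcripts had a median of 2 exons against 7. Within 500 kb on either side there was a median of 24.5 other protein-coding starts, against 16 over all genes. *Fosb* had the most (51) and *Jun* the fewest (7), the same 2 genes that were highest and lowest in the index. The GC content of the start bin was above the median gene (45.0%) in 9 of 10 members, from 53.2% in *Jund* to 45.2% in *Jun*, and below it in *Atf3* (43.4%). Gene density and GC content were thus high along with the index in most members, with *Atf3* (15 other starts) an exception in both, and their part in the index was not tested.

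Other genes of the same response, listed for their known roles, were also mostly in A, as were 75.6% of all genes, but not all as high. Of 33 other immediate early genes, 32 were in A and 1, *Ptgs2*, which encodes an inducible cyclooxygenase, was in B at -0.75 in pool 1 and -1.05 in pool 2. *Nr4a2*, a nuclear receptor gene, was the next lowest, at 0.40 and 0.50. The highest were *Ppp1r15a* (8.89 and 8.40), which relieves the block of translation under stress, and *Zfp36* (8.11 and 7.86), which destabilises mRNA, both on chromosome 7 like *Fosb*. The median of this list was 3.37, near the 3.26 of all genes, and 6 of 33 were in the top 25% in both pools (21.3% of all genes). Their surroundings had a median of 9 other starts within 500 kb, against 24.5 for the members and 16 for all genes.

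All 18 partners and relatives of AP-1 were in A, with a median of 4.68, and 9 were in the top 25%. Over all genes these shares were 75.6% and 21.3%. *Atf5* (9.32 and 7.85) and *Cebpg* (7.28 and 7.49), both on chromosome 7, were the highest of them. *Maf* (3.02 and 1.92) and *Batf2* (3.75 and 2.39) were the lowest. Of 26 upstream regulators 25 were in A, with a median of 4.43. The exception was *Crem*, a cAMP-responsive factor of the CREB family, with 0.40 in pool 1 and -0.76 in pool 2, and *Mapk9*, which encodes a Jun kinase, followed at 1.96 and 1.69. *Hras* (8.89 and 7.74) and *Mapk3*, the gene of the kinase ERK1 (7.42 and 6.94), were the highest, and both are also on chromosome 7. Values on different chromosomes share no fixed scale, and the part of the chromosome in these levels was not tested. The 18 feedback and decay factors were all in A, with a median of 4.00, from *Ier5l* (6.29 and 5.43) and *Dusp8* (6.14 and 5.33) to *Cnot7* (2.39 and 1.82), a subunit of the deadenylase complex, and *Spry2* (1.93 and 2.15).

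**Figure D5:**
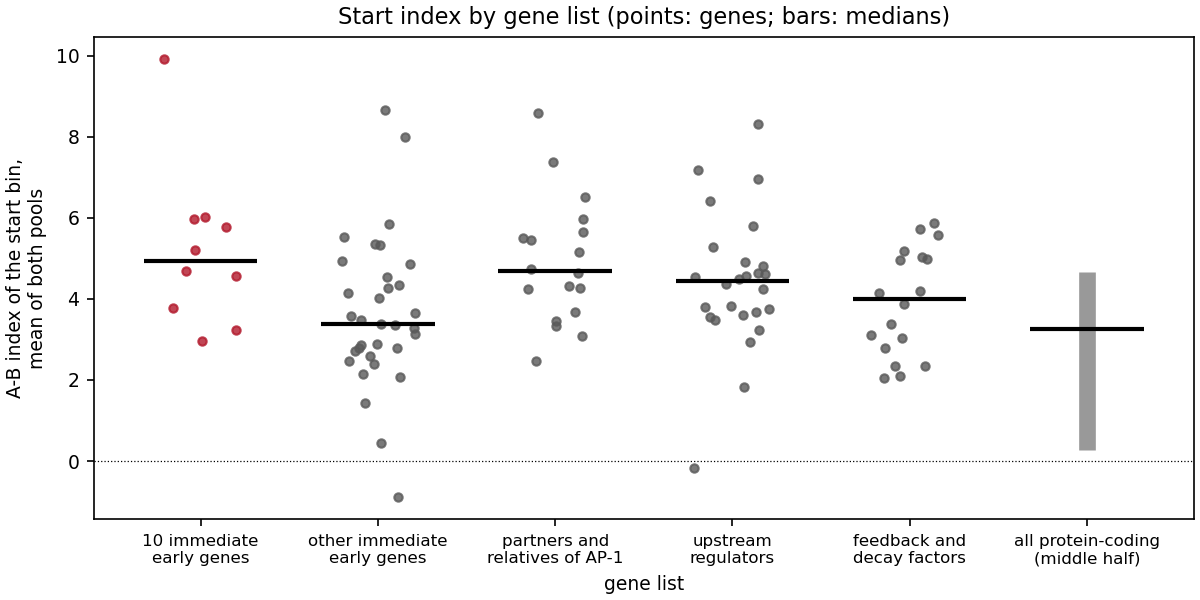
Mean A-B index of both pools at the start bin (y axis) by gene list; points are genes, horizontal bars medians, and the grey bar the interquartile range of all protein-coding genes. The 10 immediate early genes have a median of 4.94, other immediate early genes 3.37 and all protein-coding genes 3.26.

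The tissue label was set beside marker genes, as far as contacts can show it. All 7 adipocyte markers started in A, as did 75.6% of all genes. They ran from *Plin1*, a lipid droplet gene on chromosome 7, at 7.05 and 6.57 to *Adipoq*, the adiponectin gene, at 2.71 and 2.74. Their median was 3.61, against 3.26 over all genes, and *Adipoq* was below the median gene. Of the macrophage markers 2 of 5 were in A and of the endothelial markers 3 of 4. Genes of other tissues were in A as well: *Ckm*, the creatine kinase of muscle, had 9.10 and 9.11, and it lies in the TAD of *Fosb*, 94.7 kb from it. A high index at a member is therefore no measure of the cell type or of its RNA.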

How the data were processed

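The authors aligned the Hi-C reads of each pool to GRCm39 with BWA 0.7.8 inside the Juicer 1.5.6 pipeline and dropped pairs with a mapping quality below 30. The A-B index was deposited by the authors as a score per 20-kb bin and pool. Coarse A and B regions came from a principal component of 100-kb maps (R 3.6.1), with each bin scored against regions of its own chromosome, so values on different chromosomes share no fixed scale. TADs were called by the authors on the merged map and hold no replicate error. Depth per bin is unknown, and the error given is the SD of 2 pools.

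The last bin matched the length in the reference genome on 19 of 19 chromosomes. Gene starts are the 5′ ends of 20621 autosomal protein-coding genes of GENCODE M39. Promoter windows ran from 250 bases before to 50 bases after the start of the canonical transcript and were read from GRCm39. Python 3.11.15, numpy 2.4.6, pandas 2.3.3 and matplotlib 3.10.9 were used, and the functions were tested on simulated data. The 10 genes and all lists were chosen with earlier results of these data known. Genes named besides the 10 are those starting in their bins or in extreme bins of their windows, and the 2 highest and 2 lowest of each list. Nearest starts, TAD neighbours and markers near a member were named after the values were seen. Alternatives changed the bin, start, scale, neighbourhood, boundary distance, background and pool. Sheep files were not used here.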

Additional observations from a re-analysis of the deposited data

How the results depend on the processing

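All 10 members stayed in A under each alternative, and their median start index stayed between 4.51 and 5.30. The number in the top 25% of genes was 5 to 7, except that 2 (*Fosb* and *Atf3*) were in the top 10% in both pools. Within 100 kb of a boundary there were 5 members instead of 0 within 40 kb, and 0 within 20 kb, from the nearer gene end or from the canonical start, an alternative added after seeing the data. The number above its neighbourhood was 7 to 9. The difference of *Egr1* from its neighbourhood was 0.071 with 1000 kb on each side, against -0.063 with 500 kb, and ranged from -0.348 to 0.222 with 1 pool left out, and that of *Dusp1* ranged from -0.039 to 0.211. That of *Fosb* was 5.16 with 1000 kb on each side and 0.46 with 250 kb. The cause was not tested. No paired analysis was possible because the mouse libraries form 1 group. With 2 pools and unknown depth per bin, small steps between members are not resolved, and the merged TADs allow no replicate check.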

Other observations

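Markers of cell types other than fat cells were not uniformly in B at their starts, and 75.6% of all genes were in A in both pools. Of 5 adipose progenitor markers 4 were in A, among them *Col1a1*, a collagen gene, at 4.84 in pool 1 and 4.63 in pool 2, while *Dpp4* was near 0 at -0.05 and -0.24. Of the macrophage markers, *Cd68* was at 5.70 and 4.90 and *Csf1r* at 4.24 and 3.61, while *Adgre1* (-1.02 and -1.82), *Ptprc* (-1.13 and -1.44) and *Mrc1* (-0.62 and -0.02) were in B. Among genes of B and T cells, *Ms4a1* was in B at -1.47 and -2.11. In muscle, *Ckm* was at 9.10 and 9.11 and *Myh1* at -2.43 and -2.70. Genes of other organs were low, with a median of 1.47, and *Alb*, the albumin gene, was at 0.30 and -0.09.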
